A study of Oryza sativa with 3 samples.

Results

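The 7 genes described here encode enzymes of rice defence metabolism, 6 for diterpenoid phytoalexins and 1 for serotonin. They were chosen by name as the copalyl diphosphate synthases CPS2 and CPS4 and the cytochromes P450 CYP99A2, CYP99A3, CYP76M6, CYP71Z7 and CYP71P1, from among 17905 genes with a probe set on the array. All 7 were found through a synonym in the gene table, and they carry 9 probe sets. The choice was made with their ratios over the control known, so those ratios are given as a description and no test is applied to them.

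Leaf RNA was measured on Affymetrix rice GeneChip arrays in 3 samples, 1 array each: the indica cultivar Guichao2 as wild-type control, and the lines B10201 and B10301, which are Guichao2 carrying an OsEBS transgene. All plants were 6 weeks old and untreated, and 10 plants went into every sample. They were kept in a greenhouse at 28 °C, with days of 14 h and nights of 10 h. The labels name neither the promoter of the transgene nor the number of insertions, and 0 genes of the annotation matched the name EBS, so the level of the transgene was not analysed here. With 1 control array there is no replicate of the control, and an SD below is the spread between the lines (n = 2). These are bulk leaf samples, in which fewer cells of a type and less RNA per cell cannot be told apart.

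Rice makes its diterpenoid phytoalexins, antimicrobial compounds of leaf and root, from geranylgeranyl diphosphate in the plastid. A copalyl diphosphate synthase (CPS) closes the first rings, a kaurene synthase-like enzyme (KSL) completes the olefin, and cytochromes P450 and dehydrogenases oxidise it. The stereochemistry set by the CPS separates the branches: CPS2 makes the ent form, which leads to phytocassanes and oryzalexins, CPS4 makes the syn form, which leads to momilactones, and CPS1 makes the ent form for the growth hormone gibberellin. Serotonin is made from tryptophan by a decarboxylase and then by CYP71P1, the tryptamine 5-hydroxylase whose loss gives the Sekiguchi lesion phenotype. No sequence of these genes was analysed here.

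The signals are the authors' MAS5 values on the log2 scale. The median log2 signal over all probe sets was 5.41, 5.56 and 5.54 in control, B10201 and B10301, and 48.7%, 50.8% and 50.5% of probe sets lay above a common floor at log2 5.50, the median of all signals. All 3 measured leaf markers were high. The Rubisco small subunit gene RBCS lay at 15.09, 15.34 and 15.43 and Rubisco activase (RCA) at 15.40, 15.57 and 15.93 in control, B10201 and B10301, whereas the chlorophyll-binding protein gene CAB2R lay at 15.57, 14.10 and 15.33, with log2 ratios of -1.46 and -0.24 (-2.29 and -0.35 for its other probe set). Of 8 root genes, 4 were above the floor on all arrays and 4 below it on all, and their summed linear signal was 8524 in the control array, 4405 in B10201 and 4063 in B10301. Most of that sum came from NAAT1, a nicotianamine aminotransferase of iron uptake. It lay at log2 12.79, 11.50 and 11.35, and the root patterning gene SCR1 lay at 7.47, 6.23 and 6.05. The iron transporter gene IRT1 had log2 ratios of -0.68 and -0.65, and the silicon transporter gene LSI1 was higher in both lines at 0.44 and 0.41. None of the 8 root genes was at 0, and the silicon exporter gene LSI2 and the nicotianamine synthase genes NAS1 and NAS2 were below the floor on all arrays. Of the 4 measured root genes 3 were thus lower and 1 higher in both lines, beside 41.6% and 37.8% of all genes measured. The part of root genes in the values of the 7 genes was not tested. Of 7 genes on the seed list 3 were measured: the glutelin gene GLUA-2 had log2 ratios of 0.30 and 0.29, RAG2 -0.74 and 0.03, and GLB-1 -0.20 and 0.19. Their signals in control, B10201 and B10301 were 10.13, 10.43 and 10.41 for GLUA-2, 7.06, 6.32 and 7.09 for RAG2, and 12.37, 12.17 and 12.56 for GLB-1. GLUA-2 thus lay well above the floor in these leaf samples, and why was not tested. Another 3 seed genes were below the floor on all arrays. The symbol GLB-1 may here have matched the PII regulatory protein and not a storage globulin.

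Of the 7 genes, 6 had lower signals in both lines than in the control and 1, CYP76M6, had higher signals in both. Of the 6, 4 were at least 2-fold lower in both lines, namely CPS2, CPS4, CYP71Z7 and CYP71P1; with each array centred on its median, which lowered the median ratio of all genes by 0.15 and 0.14, all 6 were. Over all 14397 genes measured, with 1 probe set per gene, 2.61% were at least 2-fold lower in both lines, 2.0% at least 2-fold higher, and 41.6% were lower and 37.8% higher in both lines by any amount. The members were picked on this contrast, so nothing is read from their count against that background. The median log2 ratio of the 7 was -1.26 in B10201 and -1.30 in B10301, beside -0.02 and -0.01 over all genes. All 7 were above the floor on all 3 arrays in their brightest probe set, so none of their ratios is a bound.

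**Figure D1:**
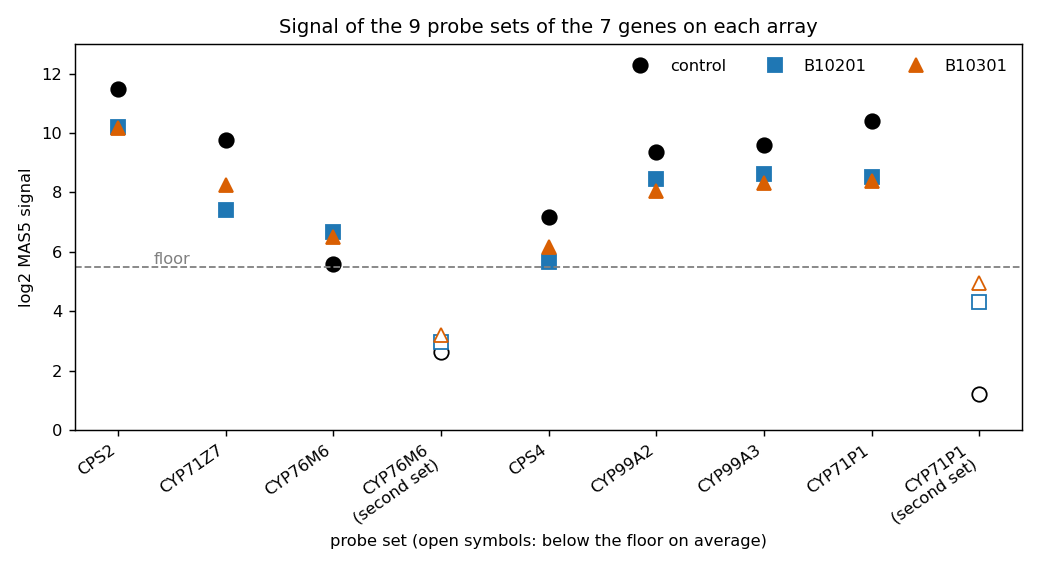
Log2 MAS5 signal (vertical axis) of the 9 probe sets of the 7 genes on each array, with the floor at 5.50 as a dashed line and open symbols for probe sets that lie below the floor on average. The control (circle) stands above both lines (square, triangle) for the brightest probe set of each gene except CYP76M6.

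Both copalyl diphosphate synthases had lower signals in the lines. CPS2, the phytocassane and oryzalexin branch enzyme, had log2 signals of 11.47 in the control array, 10.22 in B10201 and 10.17 in B10301. The control was high and the lines lay within 0.05 of each other, the closest pair among the 7 genes. This gives log2 ratios of -1.26 and -1.30, a mean of -1.28 ± 0.03 (SD, n = 2 lines), or 2.39-fold and 2.47-fold lower. Among 2646 genes of like signal (within 0.5 log2), the median difference between the lines was 0.13.

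CPS4, the momilactone branch enzyme, was a dim probe set at 7.18, 5.65 and 6.17 in the same order. The control was again highest, and B10201 came close to the floor. The log2 ratios were -1.53 and -1.01, with a mean of -1.27 ± 0.37 (SD, n = 2 lines). The lines differed by 0.52, beside a median of 0.47 between the lines over 1390 genes of like signal, so their order is within the usual spread at this signal. The means of CPS2 and CPS4 were thus alike, while the spread between the lines was larger for CPS4.

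On the momilactone branch, the paired P450s CYP99A2 and CYP99A3, which oxidise syn-pimaradiene, followed each other closely. CYP99A2 lay at 9.36 in the control array, 8.44 in B10201 and 8.04 in B10301. CYP99A3 lay at 9.61, 8.63 and 8.32. For both genes the control was highest and B10301 lowest. The log2 ratios of CYP99A2 were -0.92 and -1.33 (mean -1.12 ± 0.29, SD, n = 2 lines) and those of CYP99A3 -0.98 and -1.29 (mean -1.13 ± 0.22), so each missed the 2-fold mark in B10201 alone. The 2 genes differed from each other by -0.05 and 0.04 in their ratios. They are close paralogs, and whether their probe sets share signal was not tested.

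On the phytocassane branch, CYP71Z7, a hydroxylase of ent-cassadiene, differed most between the lines. Its signals were 9.75 in the control array, 7.40 in B10201 and 8.26 in B10301. Both lines were below the control, B10201 further. The log2 ratios were -2.35 and -1.50, or 5.10-fold and 2.83-fold lower, with a mean of -1.93 ± 0.60 (SD, n = 2 lines). The gap of 0.85 between the lines was exceeded by 7.05% of the 1859 genes of like signal. In B10201 only 0.38% of all genes measured had a lower ratio than CYP71Z7, and in B10301 1.40%.

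CYP76M6, of a P450 subfamily that hydroxylates diterpene olefins on the way to oryzalexins, went the other way. Its brighter probe set read 5.58 in the control array, 6.67 in B10201 and 6.48 in B10301. The control value stood just above the floor. The log2 ratios were 1.09 and 0.91, with an SD of 0.13 between the lines (n = 2), and 96.1% and 95.3% of genes had a lower ratio. Its other probe set read 2.64, 2.95 and 3.20, below the floor on every array. Averaging both with the dim one at the floor gave a mean log2 ratio of 0.50. The spread between the lines at this signal was wide, with a median of 0.47 and a 90th percentile of 1.10 over 1382 genes.

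CYP71P1, the serotonin enzyme, had log2 signals of 10.42 in the control array, 8.53 in B10201 and 8.38 in B10301. The lines lay close together and well below the control. The log2 ratios of -1.89 and -2.04, 3.70-fold and 4.11-fold lower, gave a mean of -1.96 ± 0.11 (SD, n = 2 lines), and 0.90% and 0.59% of genes had a lower ratio. The other probe set of CYP71P1 read 1.22, 4.31 and 4.96, below the floor throughout and in the opposite order. With that probe set held at the floor and both averaged, the mean log2 ratio was -0.98. Both the size and the direction of the difference therefore rest on the bright probe set, since the dim one at the floor adds no difference to the average.

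**Figure D2:**
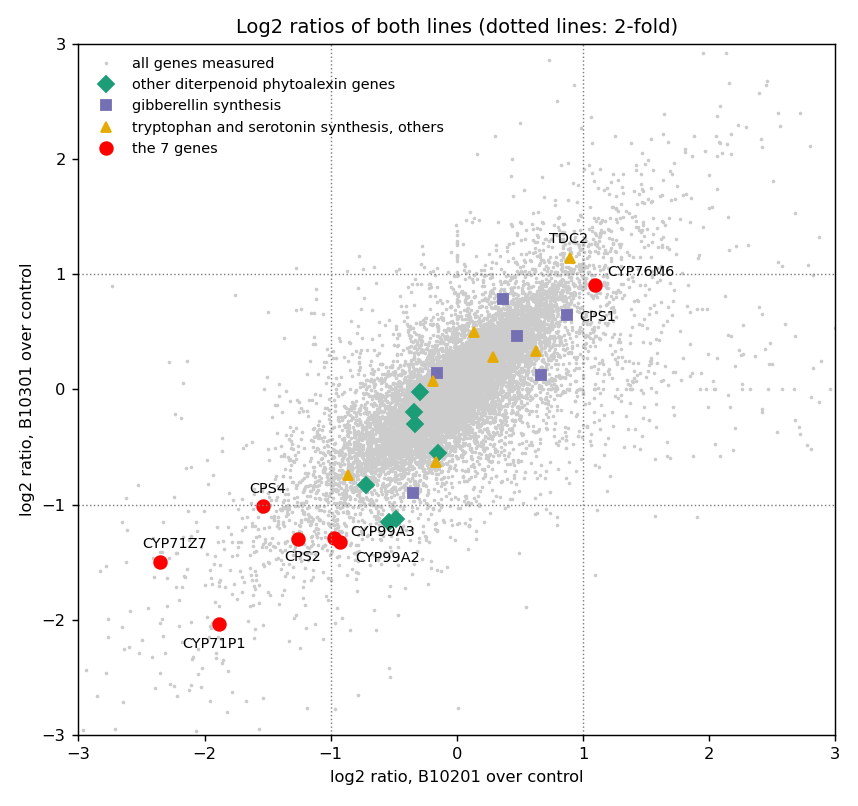
Log2 ratio over the control in B10201 (horizontal axis) and B10301 (vertical axis) for every gene measured (grey), the 7 genes (red circles) and genes of 3 related lists. Dotted lines mark 2-fold, 101 genes lie beyond the axes, and both ratios of a gene share the control array; 6 of the 7 genes lie in the lower left and CYP76M6 in the upper right.

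Position was not used to choose the genes. The diterpenoid genes were chosen by name, however, so their standing in known clusters is background and not a result. In the gene table, 3 of them (CYP71Z7, CPS2 and CYP76M6) stand within a run of 10 neighbouring genes on chromosome 2, of which 9 are diterpenoid phytoalexin genes. Another 3 (CPS4, CYP99A3 and CYP99A2) stand within a run of 6 on chromosome 4, of which 5 are. These runs are known as the phytocassane and momilactone gene clusters. CYP71P1 stands alone on chromosome 12.

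In the run on chromosome 4, all 5 diterpenoid genes were measured and all 5 were lower in both lines, beside 41.6% of all genes measured. CPS4, CYP99A3 and CYP99A2 among them were picked on this contrast, so nothing is read from the count. Between CYP99A3 and CYP99A2 stood MAS, the momilactone A synthase, at 7.38, 7.04 and 7.08, and KSL4, the syn-pimaradiene synthase, at 5.80, 5.18 and 5.78. The log2 ratios of MAS were -0.33 and -0.30, and those of KSL4 -0.29 (a bound, since B10201 was at the floor) and -0.02. These inner genes thus differed less from the control than CPS4 and the CYP99A pair. As CPS4 and the CYP99A pair were picked on this contrast, nothing is read from that order. The ratio of CPS4 was below that of KSL4 by 1.24 in B10201 and 0.99 in B10301, both on the log2 scale, although KSL4 was too near the floor to show a large fall.

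In the run on chromosome 2, 7 of the 9 diterpenoid genes were measured. Of these, 6 were lower in both lines, beside 41.6% of all genes measured. CYP71Z7 and CPS2 among these 6 were picked on this contrast, so nothing is read from this count either. CYP71Z6, a hydroxylase beside CYP71Z7, lay at 11.92, 11.44 and 10.79, and KSL5, on the other side of CPS2, at 9.50, 8.96 and 8.34. In these 2 genes B10301 was the lowest, the reverse of CYP71Z7. Their log2 ratios were -0.48 and -1.13 for CYP71Z6 and -0.53 and -1.15 for KSL5. The ratio of CYP71Z7 was below that of its neighbour CYP71Z6 by 1.87 in B10201 and by 0.37 in B10301. The choice of CYP71Z7 on this contrast favours such a difference, so nothing is read from it.

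KSL7, the ent-cassadiene synthase of the phytocassane branch, was bright and close to the control at 12.62, 12.28 and 12.42, with log2 ratios of -0.34 and -0.20. Its second probe set gave -0.60 and -0.32. The enzyme before it, CPS2, and the enzyme after it, CYP71Z7, were thus further below the control than KSL7 in both lines. CPS2 and CYP71Z7 were picked on this contrast and KSL7 was not, so nothing is read from that order. CYP76M8 (x_at, a probe set that may cross-hybridise) had log2 ratios of -0.15 and -0.55. CYP76M5 was below the floor on all arrays, and KSL6 had no probe set in the annotation. The gene inside the run that is not on the lists, LOC4329723, had log2 ratios of 0.02 and -0.03. CYP76M6, at the end of the run, was its only diterpenoid gene with a higher signal in both lines.

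Just outside the runs the values were mixed. Beyond CPS4, LOC4335089 had log2 ratios of -0.11 and -0.35, and beyond CYP99A2, LOC4335098 had -0.89 and -0.92. Beyond CYP76M6, LOC4329733 had 0.59 and 0.08. Of the 10 nearest neighbours of CYP71P1, 4 were measured: LOC4351938 had log2 ratios of -1.18 and -0.73, LOC4351940 -0.01 and 0.29, LOC4351944 0.86 and -0.02, and LOC4351951 0.12 and 0.16. CYP71P1 was further below the control than each of them, but it was picked on this contrast and they were not. Nothing is therefore read from its place among them.

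Beyond the 7 genes, the lists of diterpenoid phytoalexin synthesis held 12 other genes known to the gene table, of which 7 were measured. All 7 had lower signals in both lines (41.6% of all genes measured) and 0 were at least 2-fold lower in both (2.61% of all genes). Their median log2 ratio was -0.34 in B10201 and -0.55 in B10301, against -0.02 and -0.01 over all genes. The median of their mean ratios was -0.35, and -0.54 without MAS, CYP76M8 and CYP701A8, whose B10301 signals had been moved back by 1 place in the table. Outside the clusters, CYP701A8, a kaurene oxidase-like P450 of phytoalexin synthesis, lay at 10.91, 10.19 and 10.08, and its log2 ratios averaged -0.77 ± 0.08 (SD, n = 2 lines). With limma over all 26475 probe sets kept, 0 of these 7 genes passed the threshold, and adjusted p ran from 0.21 for CYP701A8 to 0.84 for KSL4. limma called 0 probe sets in all (0.0%), with 4520 at an unadjusted p under 0.05, but 128 with no floor and 52 with robust moderation. CYP76M7, CYP701A9 and KSL10 were below the filter. The symbol CYP76M7 matched a gene on chromosome 6 whose synonyms name loci of 2 chromosomes, so its identity and place are unsure.

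The median of the measured genes upstream of both branches lay near the control. The plastid isoprenoid list, which supplies the precursor, had 5 measured genes with medians of 0.07 and 0.08. No DXS or GGPPS symbol of the list matched a gene and ISPD had no probe set, so these steps were not measured. DXR, the reductoisomerase near the start of the pathway, had log2 ratios of 0.18 and 0.40, and ISPH, the last reductase, 0.26 and 0.54. In B10301, 80.7% of genes had a lower ratio than DXR and 87.2% a lower ratio than ISPH. The other 3, ISPE, ISPF and ISPG, lay between -0.22 and 0.08 in both lines. The sign of the median turned when arrays were centred (-0.10), and 0 of the 5 passed limma (lowest adjusted p = 0.35).

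Most measured genes of the gibberellin list lay on the higher side. No GA3OX or GA2OX symbol of the list matched a gene, so those steps were not measured. CPS1, which makes the same ent intermediate as CPS2 for the hormone, read 8.95 in the control array, 9.82 in B10201 and 9.59 in B10301. Both lines were above the control, and their ratios averaged 0.76 ± 0.16 (SD, n = 2 lines, limma adjusted p = 0.25). The ratio of CPS2 was below that of CPS1 by 2.13 and 1.95 on the log2 scale, a pair singled out after the values were seen. KS1, the ent-kaurene synthase (s_at), had log2 ratios of 0.36 and 0.78, and KAO, the kaurenoic acid oxidase, 0.48 and 0.46. KO2, the ent-kaurene oxidase (x_at), had 0.67 and 0.12, and its other probe set, also x_at, -0.83 and -0.25. GA20OX2, the semidwarf gene, lay near the control at -0.15 and 0.14, and GA20OX3 below it at -0.35 and -0.90. Of the 6 genes, 4 were higher in both lines and 1 lower, beside 37.8% and 41.6% of all genes measured. KO2 is counted as higher by its brighter probe set alone. Of the 6, 0 passed limma, and the medians were 0.42 and 0.30. The median of their mean ratios was 0.43, and 0.23 without x_at and s_at probe sets.

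In tryptophan and serotonin synthesis, CYP71P1 and the gene listed as TDC2 stood on opposite sides of the control. TDC2, by its symbol a tryptophan decarboxylase, the step before CYP71P1, read 11.14, 12.04 and 12.28. Both lines were above the control, the log2 ratios averaging 1.02 ± 0.17 (SD, n = 2 lines, limma adjusted p = 0.20). The ratio of CYP71P1 was below that of TDC2 by 2.79 in B10201 and 3.18 in B10301 on the log2 scale; this pair too was singled out after the values were seen.

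Among the anthranilate synthase genes, which commit chorismate to tryptophan, the alpha subunit gene ASA2 (s_at) was lower at -0.86 and -0.74 and ASA1 had 0.29 and 0.28. The beta subunit genes OASB1 and ASB2 had -0.17 and -0.63, and -0.19 and 0.07. The serotonin N-acetyltransferase genes, which act after CYP71P1 towards melatonin, had log2 ratios of 0.14 and 0.50 (SNAT1, x_at) and 0.63 and 0.33 (SNAT2). The second probe set of SNAT1 gave -0.08 and -1.43. The methyltransferase genes ASMT1 and ASMT3 were below the floor on all arrays. Without CYP71P1, 7 genes of the list were measured, 4 higher and 2 lower in both lines, beside 37.8% and 41.6% of all genes. The medians of the list were 0.14 and 0.28, and 0 of its genes passed limma.

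Of the genes listed as regulators of phytoalexin synthesis, 4 were measured. Many listed symbols matched no gene, among them TGAP1, DPF, WRKY45, WRKY53 and MYC2. The defence repressors WRKY62 and WRKY76 were lower in both lines, WRKY62 at 9.16, 7.53 and 7.72 (mean log2 ratio -1.54 ± 0.14, SD, n = 2 lines, limma adjusted p = 0.21) and WRKY76 at 10.22, 9.31 and 8.23 (mean -1.45 ± 0.77, limma adjusted p = 0.32). The kinase MPK6 had log2 ratios of -0.40 and -0.44 and JAR1, which conjugates jasmonate to isoleucine, 0.03 and 0.44. BZIP79, a bZIP factor linked to diterpenoid phytoalexin production, was below the floor on all arrays. The medians were -0.65 and -0.94 over these 4 genes.

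In flavonoid synthesis, the source of the other main class of rice phytoalexins, CHS, the chalcone synthase, had log2 ratios of 0.57 and 0.67 and CHI, the chalcone isomerase, 0.45 and 0.84. The brightest probe set of PAL, phenylalanine ammonia-lyase, had 0.20 and -0.06, with 4 further probe sets between 0.12 and 1.46, and 4CL3 had -0.80 and 0.33. The medians of 0.33 and 0.50 lay above 0 where those of the diterpenoid genes lay below it, and 0 of the 4 genes passed limma.

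**Figure D3:**
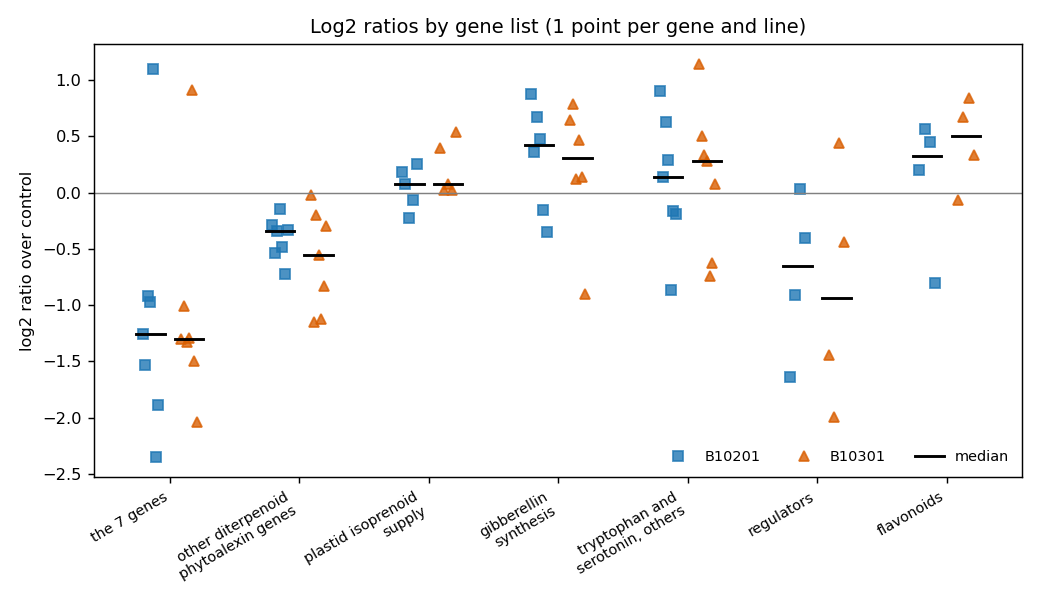
Log2 ratio over the control (vertical axis) of each measured gene by list, 1 point per gene and line, with a bar at the median. The 7 genes have medians of -1.26 and -1.30, the other diterpenoid genes -0.34 and -0.55, and the gibberellin list 0.42 and 0.30.

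Patterns most like those of the 7 genes were sought among 1943 genes with a readable name and a signal above the floor on all 3 arrays, by the Euclidean distance between the pairs of log2 ratios. The gene nearest to CYP99A2 was its paralog CYP99A3 at a distance of 0.07, followed by the proteasome subunit gene OsPBC1 at 0.08. CYP99A3 had OsPBC1 at 0.06 and then CYP99A2. CPS2 was nearest to CAM (0.06), a calmodulin, and DJB6 (0.07), a DnaJ cochaperone of the endoplasmic reticulum. CPS4 was nearest to bip115 (s_at, 0.08) and the chitinase Cht11 (0.16). CYP71Z7 had SAUR39 (0.15), of the auxin-induced SAUR family, and OsCASPL1D1 (0.34), and CYP71P1 had GLU11 (0.06), an endoglucanase symbol, and OsPP2C59 (0.35), a protein phosphatase. CYP76M6 had OsSPS2 (0.09) and BGLU3 (0.10), a beta-glucosidase. With 3 arrays that share 1 control, such nearness is a description of these arrays.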

How the data were processed

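The authors deposited log2 signals; the submitters' processing notes name MAS5, while target intensity, detection calls and further steps are not given in the sources used here. Per the labels' protocols, biotin-labelled RNA was hybridised to 1 array per sample. In the B10301 column, 2 stretches of 6717 and 988 probe sets stand 1 place away from their own probe set and were moved back: the correlation with the mean of the other arrays went from 0.40 to 0.94 and from 0.05 to 0.82. None of the 9 probe sets of the 7 genes lies there, whereas those of MAS, CYP76M8, CYP701A8, KO2, SNAT1, SNAT2, ASA2, OASB1, NAAT1, NAS2, LSI1, CAB2R, RAG2, GLU11, LOC4335089, LOC4329733 and 4 of PAL do.

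Lower signals were set to a floor, the median over all arrays (log2 5.50), and the 26475 of 57194 probe sets with a mean above it were kept, representing 14397 genes. A gene was represented by its brightest probe set. Names came from the platform annotation matched to the gene table of assembly ASM3414082v1, which was used for names and gene order only; listed symbols that matched several genes (4 of 171) were left out and 79 matched none. The labels say nothing of separate plantings, so p-values measure only the spread between these samples, and the number of arrays limits the precision. The 3 arrays entered 1 limma fit (version 3.58.1, R 4.3.3; trend by intensity; two-sided; adjusted p under 0.05 by Benjamini-Hochberg). Its 1 residual degree of freedom comes from the lines, and the lone control array is taken to vary as they do. Python 3.11.15, numpy 2.4.6, pandas 2.3.3 and matplotlib 3.10.9 did the rest. The named genes were the 7, all measured genes of each list up to 8, neighbours up to 5 places away and the 2 genes nearest in pattern. The genes and lists were chosen with earlier results of these data known. Alternatives were the stretches as deposited or left out, other floors, centring, quantile normalization, no x_at or s_at probe sets, either line alone, averaged probe sets, and limma without a trend or with robust moderation.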

Additional observations from a re-analysis of the deposited data

How the results depend on the processing

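Of 70 alternative values of the 7 mean log2 ratios, 40 were identical to those reported, since none of the 7 genes lies in a displaced stretch, below the floor or on an x_at or s_at probe set, and 5 have 1 probe set. The other 30 kept their sign, which the choice of the genes favours. The number at least 2-fold from the control was 4, became 6 with centred arrays and lay between 5 and 6 with either line alone. The lowest and highest ratios were -1.42 and -1.25 for CPS2, -1.53 and -1.01 for CPS4, -1.33 and -0.92 for CYP99A2, -1.29 and -0.98 for CYP99A3, 0.50 and 1.09 for CYP76M6, -2.35 and -1.50 for CYP71Z7, and -2.11 and -0.98 for CYP71P1, the last with its dim probe set averaged in. The median of the other diterpenoid genes (-0.35) was -0.54 with the stretches left out, -0.55 when x_at and s_at probe sets were dropped, -0.56 with a floor at the 25th percentile, and between -0.55 and -0.34 with either line alone. The count of probe sets 2-fold or more away from the control in both lines was 1394, against 5997 with the lower floor, 10994 with no floor and 2635 to 2823 with either line alone. limma calls numbered 0, but 128 with no floor and 52 with robust moderation. As deposited, the tryptophan and serotonin list turned to -0.59, where values of its displaced probe sets belong to other genes, and the seed list to 0.15. The seed list's values of 0.193 without B10201 and -0.199 without B10301 are those of 1 gene, GLB-1, whose identity is unsure. The plastid isoprenoid list turned from 0.05 to -0.10 with centred arrays, a setting that lowered the median ratio of all genes by 0.15 and 0.14. The leaf list turned to -0.0396 without x_at and s_at probe sets. That value is the mean ratio of the RBCS probe set that then represented the gene. No paired analysis was possible because the control has 1 sample. Dim probe sets such as those of CPS4, CYP76M6 and KSL4 are limited by their closeness to the floor.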
